A study of Mus musculus with 36 samples.

Results

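The comparison asked how loss of Mir324, the gene of the microRNA miR-324, changed gene expression in mouse osteoblast cultures against marrow macrophage cultures. It used 24 of the series' 36 libraries, those titled OB (osteoblast cultures) and BMM (bone marrow macrophages), 6 for each genotype in each culture. The other 12 libraries, from macrophages given RANK-L to form osteoclasts, were left out. For each gene the difference of interest was the genotype effect in OB minus the genotype effect in BMM, called the interaction below. The mice were 20 weeks old and labelled wild-type control or Mir324-null, and the cells came from their long bones. Flushed marrow was grown for 3 days with 100 ng/mL M-CSF, the growth factor that macrophages need, and then for 5 days with 30 ng/mL M-CSF and no RANK-L. Osteoblasts grew out of collagenase-treated bone chips over about 6 weeks and then spent 18 days in osteogenic medium with 2 mM β-glycerophosphate and 50 µg/mL ascorbic acid. Both genotypes of a culture received the same media. RNA was taken from whole cultures, so fewer cells of a type and less RNA per cell cannot be told apart. Nothing in the labels says which libraries came from separate mice, and the p-values measure only the spread between these libraries. No batch is named, so a batch that follows genotype and the genotype itself cannot be told apart.

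A microRNA pairs through its seed, bases near its 5′ end, with sites mostly in the 3′ untranslated regions of mRNAs, and lowers their stability and translation. The hairpin of Mir324 gives an arm from each side, miR-324-5p and miR-324-3p. Osteoblasts deposit the collagen matrix of bone and mineralise it. Macrophages of the marrow clear debris, sense microbes and are the precursors of osteoclasts, which resorb bone. Type I interferons act on almost every cell type, and their target genes limit viral growth.

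The arms made from Mir324 are shown because the seeds below define the sites counted later. RefSeq places the hairpin at chr11:70012043-70012131 on the plus strand of GRCm38.p6, the 5p arm at 70012060 to 70012082 and the 3p arm at 70012095 to 70012114. Capitals mark seed bases 2 to 8.
mmu-miR-324-5p: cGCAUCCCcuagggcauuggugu
mmu-miR-324-3p: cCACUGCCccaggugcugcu
The hairpin lies inside the span of Dvl2 and of Acadvl, which overlap on opposite strands. Genotype labels could not be checked on Mir324, whose own level is not analysed here. Of the 5 neighbouring genes, Phf23 passed no test. Dvl2, a transducer of Wnt signals, was at 33.1, 34.4 and 37.7 CPM (counts scaled to library size) in wild-type BMM and at 22.03, 27.2 and 29.2 CPM in null BMM. Here and below, 3 levels given for a group are the lowest, the median and the highest of its 6 libraries. Null BMM libraries all lay below the wild type, and the log2 fold change, given here and below with its standard error (SE), was -0.42 (SE 0.08) at an adjusted p of 3.63e-05. The groups overlapped in OB, and the value there was 0.07 (SE 0.07) with adjusted p = 0.551. All adjusted p-values are Benjamini-Hochberg values from edgeR's quasi-likelihood test with a threshold of 0.05. Acadvl, a mitochondrial fatty acid dehydrogenase, rose by 0.40 (SE 0.05) in BMM (adjusted p = 8.04e-08) and stood at 0.06 (SE 0.05) in OB (adjusted p = 0.347). Reads of this overlapping pair cannot be assigned without strand, and whether counting used strand is not given in the sources used here. Gabarap, an autophagy protein gene, fell by 0.40 (SE 0.07) in OB on the log2 scale (adjusted p = 2.72e-04) and did not pass in BMM (adjusted p = 0.212). Dlg4, a scaffold protein gene, rose in BMM by 1.03 (SE 0.18) (adjusted p = 3.47e-05) and was at 0.03 (SE 0.14) in OB. The interaction passed for Dvl2, Acadvl, Gabarap and Dlg4. With the length and GC offset described below, the interaction of Gabarap was -0.13 (adjusted p = 0.128) and its OB change -0.15.

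The label of each culture was checked against markers. The summed level of 16 macrophage genes was 49061 to 60598 CPM in wild-type BMM and 57777 to 66097 CPM in null BMM. The same sum was 16101 to 19854 CPM in wild-type OB and 8838 to 12260 CPM in null OB, so the cultures labelled osteoblasts held macrophage transcripts, and less of them in the null. A sum over 15 osteoclast genes was also higher in OB than in BMM, at 4441 to 5623 CPM in wild-type OB, 5330 to 8177 CPM in null OB, 1012 to 1167 CPM in wild-type BMM and 879.1 to 1015 CPM in null BMM. Osteoblast markers summed to 71794 to 94582 CPM in wild-type OB and 110194 to 130982 CPM in null OB. Their sum in BMM, 4192 to 6425 CPM in the wild type and 1734 to 2185 CPM in the null, was mostly Spp1, which macrophages also make. A list of 15 connective-tissue matrix genes summed to 1.813 to 12.29 CPM in wild-type BMM and 101.6 to 194.1 CPM in null BMM, a trace beside 27616 to 43404 CPM in the OB libraries. A neutrophil list summed to 22.39 to 26.14 CPM in wild-type and 211.2 to 247.4 CPM in null BMM, of which Mmp8 made up most (mean 210.5 CPM in the null), while S100a9 was at 0 in all of these libraries. Among the 24 libraries, null OB replicate 5 stood apart in interferon and MHC class I genes, and the OB values of the named interferon and MHC class I genes are given with and without it. Library totals ran from 17048357 to 23598922 estimated counts.

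**Figure D1:**
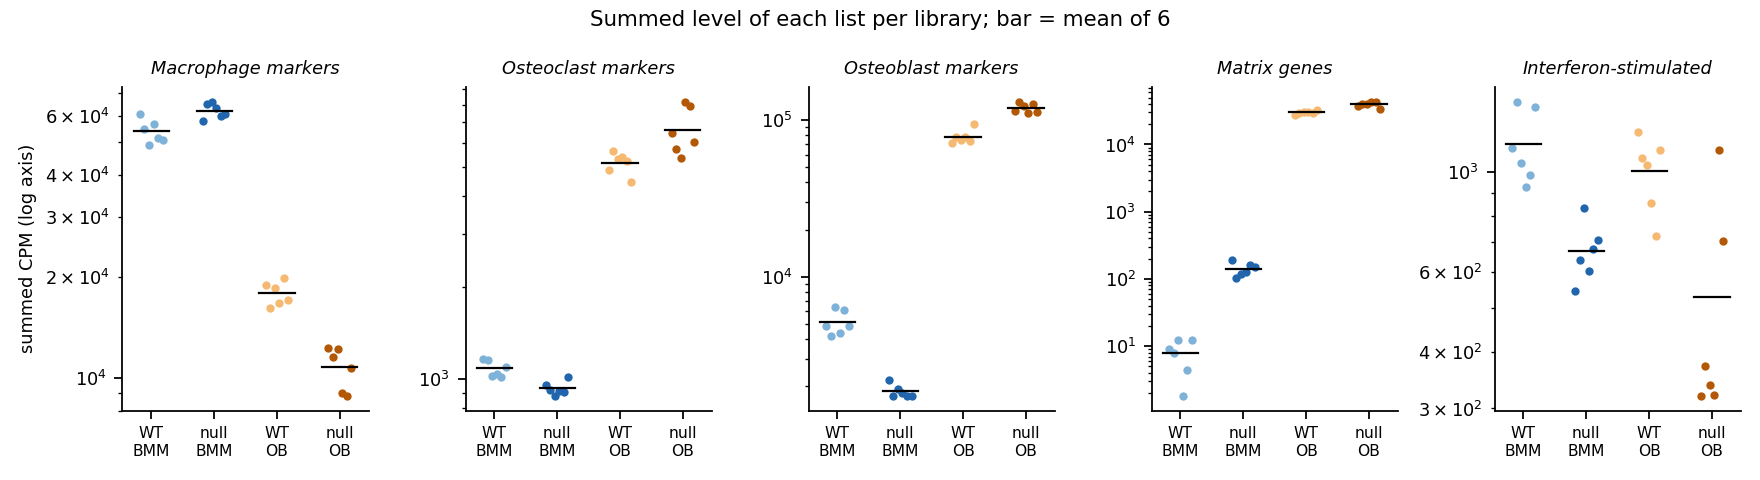
Summed CPM of 5 gene lists (log axes) in each of the 24 libraries, coloured by group, with a bar at the mean of 6. Macrophage markers are lower in null OB than in wild-type OB, matrix genes rise from under 13 to over 101 CPM in null BMM, and 1 null OB library has an interferon sum of 1119 CPM, inside the wild-type range.

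More genes differed between the genotypes in BMM than in OB, and by more. In BMM 6641 of 11935 tested genes passed (55.6%), 3280 higher and 3361 lower in the null. In OB 3820 of 13608 passed (28.1%), 1709 higher and 2111 lower. The interaction passed for 6555 of 14014 genes (46.8%), with 3112 more positive and 3443 more negative (24.6%) in OB. Among genes tested in both cultures it passed for 5975 (51.3%), and for 2915 of these it was more positive in OB (25.0%). Over the 11643 genes tested in both cultures the median absolute log2 fold change was 0.323 in BMM and 0.193 in OB. Among the genes called, 1304 of 6496 in BMM (20.1%) and 115 of 3436 in OB (3.3%) reached an absolute log2 fold change of 1.

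A minority of genotype effects were common to the cultures. Among those that passed in both, whether opposite or shared directions were more frequent depended on the setting. Opposite was the more frequent without the length and GC offset described below. With that offset 596 genes were shared and 437 opposite. At an absolute log2 fold change of at least 1 in both cultures, 38 were shared and 15 opposite. Without the offset, 55.8% of all genes tested in both passed in BMM and 29.5% in OB. Both tests passed for 2169 genes, which is 33.4% of the BMM calls (beside 29.5%) and 63.1% of the OB calls (beside 55.8%). Of these, 843 had the same sign (7.24% of genes tested in both), 296 higher (2.54%) and 547 lower (4.70%) in the null. The other 1326 had opposite signs (11.4%), with 566 higher in null OB and lower in null BMM (4.86%) and 760 lower in null OB and higher in null BMM (6.53%). For 532 of the 843 shared genes the interaction did not pass, and where it did pass, in 311, the effect was the larger in BMM for 278. A further 4327 genes passed in BMM alone and 1267 in OB alone, of which the interaction passed for 3227 and 800. A stricter class, called limited here, asked for a log2 fold change of at least 1 in one culture, a 95% interval inside -0.5 to 0.5 in the other and a passed interaction. It held 368 genes for BMM (3.16%), 227 higher (1.95%) and 141 lower (1.21%) in the null, and 4 for OB (0.0344%), all lower. The count for OB ran from 3 to 8 as each library was left out, with 8 reached without null OB replicate 5. Genotype groups did not overlap in CPM for 30.9% of genes tested in BMM and 15.8% of those tested in OB.

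**Figure D2:**
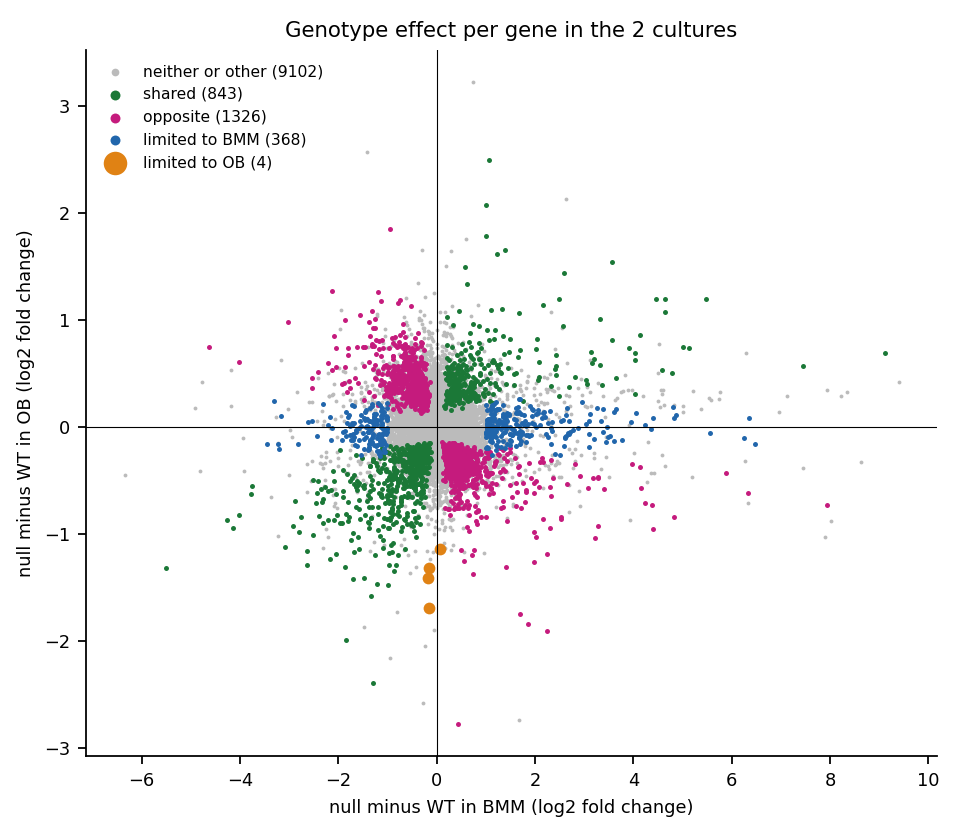
Each point is 1 of 11643 genes tested in both cultures, with its null minus wild-type log2 fold change in BMM on the horizontal axis and in OB on the vertical axis, coloured by class. The points spread further along the BMM axis than along the OB axis, and the 4 genes limited to OB lie below 0.

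Interferon-stimulated genes were lower in the null in both cultures. Of 20 listed genes, all tested in both cultures, 14 fell and 0 rose in null BMM, and 16 fell and 0 rose in null OB, beside 28.2% of all tested genes lower in BMM and 15.5% lower in OB. Over all tested genes 27.5% were higher in BMM and 12.6% in OB, and the counts of every list below from this fit stand beside these 4 shares. The median log2 fold change of the list was -0.961 in BMM and -1.027 in OB, against 0.005 and 0.001 over all genes. The interaction passed for 3 of the 20, and 11 were in the shared class. A second fit carried an offset that takes out each library's trend with the length and GC content of transcripts, and in it 15 fell in BMM and 10 in OB. Over all tested genes that fit had 3499 higher and 3264 lower of 11935 in BMM. In OB it had 704 higher and 1008 lower of 13608, and list counts with the offset stand beside these numbers. Oas1a, which makes the second messenger that activates RNase L, was at 115, 128 and 139 CPM in wild-type BMM and 54.9, 63.8 and 81.2 CPM in null BMM. In OB it was at 32.97, 43.4 and 59.4 CPM in the wild type and 10.2, 14.7 and 39.9 CPM in the null. The genotype groups were apart in BMM, while in OB the highest null library lay among the wild-type ones. The log2 fold changes were -0.96 (SE 0.23) in BMM (adjusted p = 0.00101) and -1.18 (SE 0.24) in OB (adjusted p = 7.82e-04), and their difference was -0.21 (SE 0.32) (adjusted p = 0.6301). Much of Oas1a's sequence, 68.8% of its 31-base stretches, also occurs in Oas1g, Oas1b and other genes, so its reads may be split among copies.

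Oasl2, another oligoadenylate synthetase family member, fell from 74.8, 100.2 and 139 to 17.3, 27.2 and 42.7 CPM in BMM. In OB its levels were 33.2, 44.6 and 63.7 CPM in the wild type and 5.37, 8.63 and 51.5 CPM in the null, where 1 null library reached the wild-type range. Its log2 fold changes were -1.87 (SE 0.42) in BMM (adjusted p = 6.49e-04) and -1.31 (SE 0.42) in OB (adjusted p = 0.0232), where the offset gave -1.24 (adjusted p = 0.05398). Irf9, a transcription factor of the interferon response, fell, with log2 fold changes of -0.88 (SE 0.15) in BMM and -0.71 (SE 0.15) in OB, with adjusted p of 1.78e-05 and 9.61e-04. Xaf1, a pro-apoptotic interferon target, fell, with log2 fold changes of -0.96 (SE 0.22) and -0.84 (SE 0.21) (adjusted p = 5.83e-04 and 0.00426). Phf11b, a member of an interferon-inducible cluster that was not in the list, was among the 3 largest shared decreases, at -1.48 (SE 0.24) in BMM and -1.41 (SE 0.27) in OB, and 62.9% of its 31-base stretches are shared with Phf11d, Phf11a and others. Iigp1, an interferon-inducible GTPase, was the third, at -1.33 (SE 0.55) and -1.58 (SE 0.41). Its BMM level was low, 1.08 to 3.12 CPM in the wild type and 0.321 to 1.06 CPM in the null, and the BMM call was lost on leaving out single libraries (adjusted p from 0.05196 to 0.121 without any 1 of 8 libraries, wild-type BMM replicates 1, 2 and 6 and null BMM replicates 1, 2, 4, 5 and 6).

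Ifit2, an inhibitor of viral translation, differed between the cultures. It fell from 46.9, 60.5 and 120 to 10.4, 16.7 and 20.8 CPM in BMM with no overlap, a change of -2.22 (SE 0.33) (adjusted p = 5.24e-06). In OB it was at 23.5, 34.98 and 47.6 CPM in the wild type and 9.63, 16.8 and 43.8 CPM in the null, which overlapped, and the fold change was -0.87 (SE 0.32) (adjusted p = 0.0456). The interaction was 1.35 (SE 0.45) (adjusted p = 0.0169), a smaller decrease in OB. The OB call was lost on leaving out single libraries (adjusted p from 0.0504 to 0.0904 without any 1 of 13 libraries, wild-type BMM replicate 1, null BMM replicates 1 and 4, wild-type OB replicates 1, 2, 3, 4 and 6 and null OB replicates 1, 2, 3, 4 and 6). Bst2 (tetherin, which holds virus particles at the cell surface) went the other way: it was 169, 184 and 194 CPM in wild-type and 127, 186 and 256 CPM in null BMM, overlapping, and 108, 128 and 154 CPM in wild-type and 41.8, 49.95 and 99.1 CPM in null OB, not overlapping. It fell by 1.14 (SE 0.18) in OB (adjusted p = 7.92e-05) while its BMM value was 0.06 (SE 0.18) with a 95% interval of -0.31 to 0.43, and the interaction was -1.20 (SE 0.25) (adjusted p = 4.51e-04). Cxcl10, an interferon-induced chemokine, was the third gene with a passed interaction, at 0.11 (SE 0.27) in BMM and -0.90 (SE 0.26) in OB (adjusted p for the interaction = 0.0296). Null OB replicate 5 held the highest null OB level of many of these genes. Without it, all 20 genes fell in OB and the list median was -1.404. The OB log2 fold changes were then -1.48 (SE 0.19) for Oas1a, -1.91 (SE 0.35) for Oasl2, -0.88 (SE 0.12) for Irf9, -1.14 (SE 0.15) for Xaf1 and -1.68 (SE 0.26) for Phf11b. They were -2.20 (SE 0.35) for Iigp1, -1.24 (SE 0.28) for Ifit2, -1.33 (SE 0.15) for Bst2 and -1.03 (SE 0.27) for Cxcl10, and the interaction still passed for Ifit2, Bst2 and Cxcl10 (adjusted p = 0.03697, 8.64e-06 and 0.0157). Irf7, the transcription factor that amplifies the interferon response, passed in OB only without that library (adjusted p = 9.69e-04 and log2 -1.75 without null OB replicate 5, against -1.03 (SE 0.44) and adjusted p = 0.0869 with it). The macrophage markers also fell in null OB, and their part in the lower interferon genes there was not tested.

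The windows below show the interferon-stimulated response element in promoters of shared and OB-limited genes, read from RefSeq promoters on GRCm38.p6 (250 bases before to 50 after the gene start), with the motif (GAAA, any 2 bases, GAAA) or its reverse complement in capitals, on the gene's strand.
Ifit3, chr19:34583363-34583392, plus strand: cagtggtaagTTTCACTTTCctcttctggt
Oas1a, chr5:120907520-120907549, minus strand: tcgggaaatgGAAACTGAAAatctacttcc
Bst2, chr8:71537577-71537606, minus strand: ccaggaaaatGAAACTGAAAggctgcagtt
Phf11b, chr14:59341361-59341390, minus strand: cacatttagaGAAAAAGAAActagaaacta
In Oas1a and Bst2 a second match overlaps the one shown. On either strand the motif occurred in 10 of the 16 listed interferon genes that had a promoter in the table (62.5%). Over all 27025 promoters it occurred in 1079 (4.0%), and over genes tested in both cultures in 362 of 9067 (4.0%). In the shared lower class it was in 34 of 420 (8.1%), in the shared higher class in 11 of 225 (4.9%), in genes higher in null OB and lower in null BMM in 8 of 452 (1.8%) and in the reverse class in 30 of 610 (4.9%). These are counts of letters, not of bound sites.

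By count of calls, macrophage markers and lysosomal genes were mostly lower in the null in both cultures, and complement genes in OB. The summed macrophage level was higher in null BMM, at a mean of 62162 CPM against 53897 CPM in the wild type, with overlapping ranges. Of 16 macrophage markers, 9 fell and 4 rose in null BMM and 13 fell and 0 rose in null OB, with medians of -0.502 and -0.636, beside 28.2% of all tested genes lower in BMM and 15.5% lower in OB. Of 11 complement genes tested in BMM 5 rose and 5 fell, with a median of -0.031, and of 14 tested in OB 1 rose and 8 fell, with a median of -0.448. C1qb, a chain of the complement initiator C1q, was at 3653, 3999 and 4189 CPM in wild-type BMM and 2081, 2874 and 3363 CPM in null BMM. Its OB levels were 1167, 1274 and 1422 CPM in the wild type and 641, 767 and 890.5 CPM in the null. The genotypes were apart in both cultures. C1qb changed by -0.49 (SE 0.09) in BMM (adjusted p = 8.26e-05) and by -0.78 (SE 0.09) in OB (adjusted p = 1.52e-06). C1qa and C1qc passed in the same direction, C1qa with -0.94 (SE 0.10) and -0.86 (SE 0.10). Mrc1, the mannose receptor, fell further in BMM, from 1093, 1180 and 1340 to 172, 252 and 277 CPM, than in OB, from 301, 358 and 436 to 143, 211 and 315 CPM. Its log2 fold changes were -2.32 (SE 0.15) and -0.70 (SE 0.14) and the interaction was 1.62 (SE 0.20) (adjusted p = 4.01e-07). Csf1r, the M-CSF receptor, passed in neither culture, with 95% intervals of -0.07 to 0.21 in BMM and -0.09 to 0.19 in OB. Adgre1, the macrophage surface protein F4/80, rose in BMM from 1729, 1876 and 2054 to 6378, 7357 and 8235 CPM, by 1.98 (SE 0.09), and fell by 0.52 (SE 0.09) in OB. Mertk, which takes up apoptotic cells, and Fcgr1, an Fc receptor, fell in both. Lyz2, a lysozyme gene, made up most of the macrophage sum in BMM, at a mean of 34355 CPM in the wild type and 41526 CPM in the null. It rose there by 0.27 (SE 0.11) (adjusted p = 0.0429) and fell by 0.82 (SE 0.11) in OB. The BMM call was lost with the length and GC offset, at 0.16 (adjusted p = 0.174), and without any 1 of 9 libraries.

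Of 13 lysosomal genes 8 fell and 1 rose in null BMM, and 10 fell and 0 rose in null OB (background 28.2% lower in BMM and 15.5% in OB), with 7 in the shared class. Ctsb, the cysteine protease cathepsin B, went from 28985, 30813 and 34900 to 19861, 20925 and 22613 CPM in BMM and from 6908, 7319 and 8157 to 4331, 4972 and 5479 CPM in OB. The groups did not overlap in either culture. Its log2 fold changes, -0.58 (SE 0.07) and -0.61 (SE 0.07), differed by -0.04 (SE 0.09) with a 95% interval of -0.23 to 0.16. Hexa, a subunit of β-hexosaminidase, fell, with log2 fold changes of -0.54 (SE 0.06) in BMM and -0.39 (SE 0.06) in OB. Ctsd (cathepsin D) and Gpnmb, a lysosome-associated glycoprotein of phagocytes, fell in OB, with log2 fold changes of -0.77 (SE 0.07) and -0.70 (SE 0.09). Neither passed in BMM, at -0.14 (SE 0.07) and 0.09 (SE 0.09), and the interaction passed for both. Ctsl (cathepsin L) rose in BMM by 0.74 (SE 0.12) and fell by 0.36 (SE 0.12) in OB, and the OB call was lost on leaving out single libraries (adjusted p from 0.0507 to 0.0664 without any 1 of 5 libraries, wild-type OB replicates 3, 4 and 5 and null OB replicates 1 and 6) and with the length and GC offset, which gave -0.23 (adjusted p = 0.194). Most of these genes are abundant in macrophages, and the part of the lower macrophage marker sum in null OB was not tested.

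**Figure D3:**
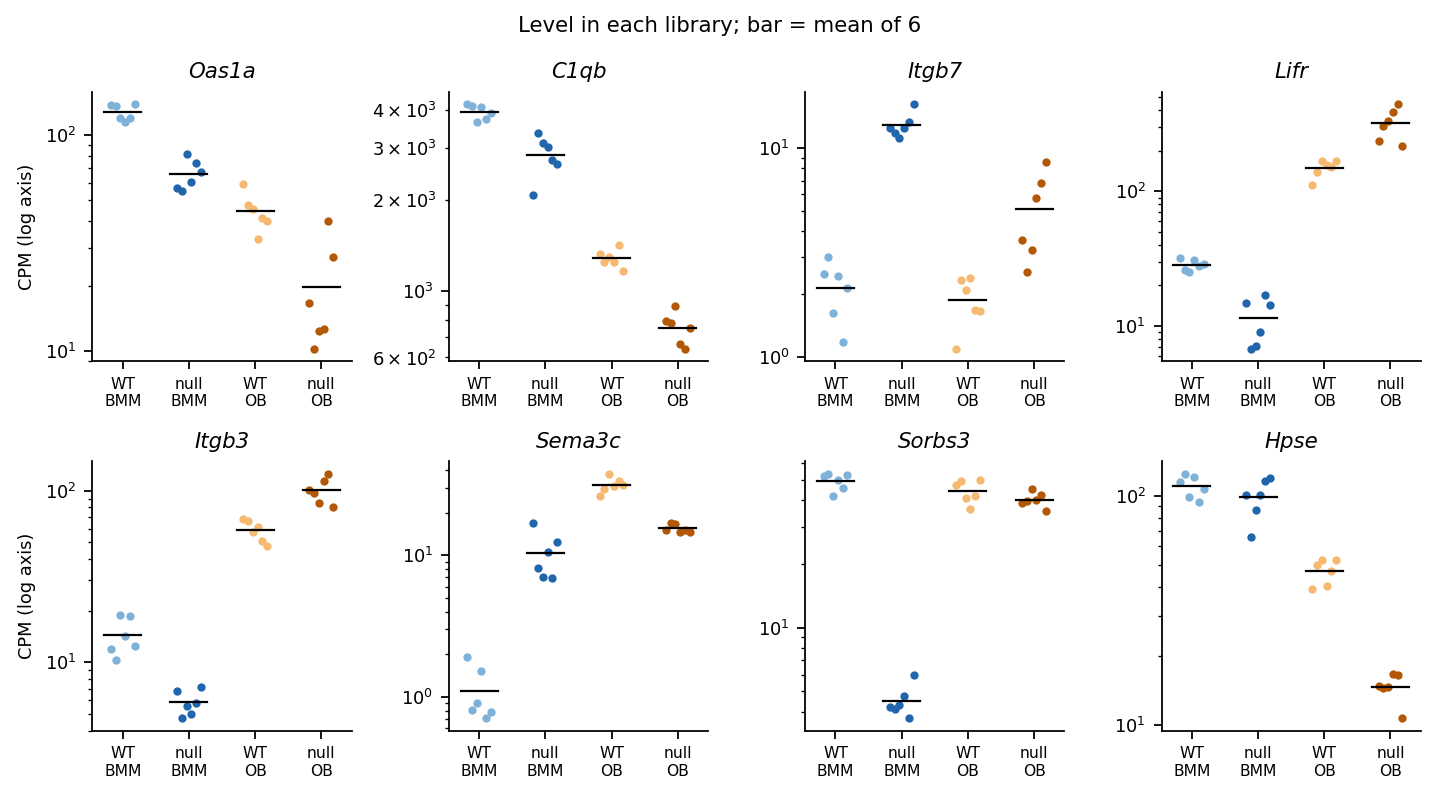
CPM (log axes) of 8 genes in each library by group, with a bar at the mean of 6. Oas1a and C1qb are lower in the null in both cultures, Itgb7 is higher in both, Lifr and Itgb3 fall in BMM and rise in OB, Sema3c does the reverse, Sorbs3 moves in BMM alone and Hpse in OB alone.

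Genes raised in both cultures included Itgb7, Phospho1, Eno2, Il1rn and Igf2r. Itgb7, an integrin β chain of leukocytes, was at 1.17, 2.28 and 2.99 CPM in wild-type and 11.2, 12.5 and 16.3 CPM in null BMM. OB levels were 1.09, 1.88 and 2.39 CPM in the wild type and 2.55, 4.71 and 8.57 CPM in the null. No null library overlapped the wild type in either culture. It rose by 2.60 (SE 0.25) in BMM (adjusted p = 2.32e-09) and by 1.44 (SE 0.26) in OB (adjusted p = 1.85e-04), with an interaction of -1.15 (SE 0.36) (adjusted p = 0.00982). Phospho1, the phosphatase that starts mineral formation in matrix vesicles, rose from 0.564, 0.734 and 0.911 to 3.12, 10.01 and 13 CPM in BMM and from 11.04, 14.4 and 21.2 to 29.7, 43.6 and 61.1 CPM in OB. Its log2 fold changes were 3.56 (SE 0.32) (adjusted p = 1.26e-09) and 1.55 (SE 0.23) (adjusted p = 3.73e-05). This gene lies within Zfp652 transcripts, which hold 87.1% of its 31-base stretches, so its counts are uncertain. Eno2, a glycolytic enolase, rose by 1.23 (SE 0.36) in BMM and 1.62 (SE 0.27) in OB, where the null libraries spread from 15.6 to 77.1 CPM. Its BMM level was low, 0.51 to 1.95 CPM in the wild type and 2.16 to 3.87 CPM in the null. The BMM call was lost with limma-voom. Il1rn, the IL-1 receptor antagonist, rose by 0.62 (SE 0.15) in BMM and by 1.34 (SE 0.15) in OB, with no overlap in either culture and the larger rise in OB (interaction 0.72 (SE 0.21), adjusted p = 0.00797). Igf2r, which carries IGF2 and lysosomal enzymes to the lysosome, rose by 0.20 (SE 0.07) in BMM and 0.77 (SE 0.07) in OB, and with the length and GC offset by 0.37 and 0.36.

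Runx2, the transcription factor that commits cells to the osteoblast lineage, was at 1.74, 2.66 and 2.95 CPM in wild-type and 2.46, 3.38 and 4.28 CPM in null BMM, which overlapped. In OB it was at 20.5, 23.3 and 31.6 CPM in the wild type and 33.6, 35.9 and 42.3 CPM in the null, which did not. The log2 fold changes were 0.46 (SE 0.16) (adjusted p = 0.0174) and 0.55 (SE 0.13) (adjusted p = 0.00219), and the interaction was 0.09 (SE 0.21) (adjusted p = 0.766). The BMM call was lost on leaving out single libraries (adjusted p from 0.0516 to 0.0563 without any 1 of 3 libraries, wild-type BMM replicates 2 and 6 and null BMM replicate 6), and the OB value was 0.29 (adjusted p = 0.136) with the length and GC offset.

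Collagen and matrix genes were higher in the null in both cultures from very different starting levels. Of 15 matrix genes, 9 could be tested in BMM and all 9 rose, with a median of 3.13. In OB 10 of 15 rose and 0 fell, with a median of 0.488. Over all tested genes 27.5% were higher in BMM and 12.6% in OB. The 15 genes summed to 1.813 to 12.29 CPM in wild-type BMM, so a gene could pass the expression filter there through the null libraries alone. The count of 9 of 9 is therefore not directly comparable with the 27.5%. Col1a1, the main chain of bone collagen, was at 6.63, 14.3 and 22.7 CPM in wild-type and 33.95, 52.6 and 104 CPM in null BMM, and at 31116, 33102 and 45473 CPM in wild-type and 54905, 65313 and 70585 CPM in null OB. The groups were apart in both, and the log2 fold changes were 2.04 (SE 0.27) and 0.83 (SE 0.25) (adjusted p = 1.02e-06 and 0.01698). Fn1 (fibronectin) rose by 2.57 (SE 0.24) in BMM, from 1.303 to 6.17 CPM to 15.6 to 31.2 CPM, and by 0.95 (SE 0.19) in OB, from 2967 to 4096 CPM to 5883 to 7711 CPM. Lox, which cross-links collagen, was at 0.17, 0.5101 and 1.17 CPM in wild-type and 68.1, 86.9 and 116 CPM in null BMM, from 3 to 27 counts a library in the wild type. It rose there by 7.12 (SE 0.25), while in OB it was at 0.29 (SE 0.16) with adjusted p = 0.177. Acta2, smooth muscle actin, rose in BMM by 3.46 (SE 0.14) from 1.303 to 2.41 CPM to 17.3 to 22.7 CPM, and its OB value was 0.00 (SE 0.10). The mural list rose in null BMM with the matrix list, from 2.457 to 4.209 CPM in the wild type to 24.07 to 30.83 CPM in the null, and the part of cells of another type in either list was not tested. Of the 227 genes raised in BMM and limited to it, 84 had a null BMM mean under 10 CPM and 41 had an OB level at least 20 times their null BMM level. Smoc2, a matricellular protein and one of the 3 largest by fitted change, was such a gene: its wild-type BMM libraries held 0 or 1 count, its null BMM libraries 12 to 35 counts, and its OB levels were 277 to 337 CPM in the wild type and 222 to 345 CPM in the null. Its fitted change depends on the prior count and is not given as a fold.

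The OB increases in this group changed with the length and GC offset. With it 3 of the 15 matrix genes and 3 of the 16 osteoblast markers rose in OB, where 10 and 7 had done so without it. Over all 13608 genes tested in OB, 1709 rose without it and 704 with it. With the offset Col1a1 stood at 0.53 in OB (adjusted p = 0.167) and Col1a2, the other chain of type I collagen, at 0.34 (adjusted p = 0.214). Fn1 remained past the threshold, at 0.61 (adjusted p = 0.0283). Ibsp, the bone sialoprotein of mineralising osteoblasts, was at 10737, 13623 and 16929 CPM in wild-type and 13163, 24564 and 29994 CPM in null OB and rose by 0.73 (SE 0.15) without and 0.84 with the offset. It was not tested in BMM, where it was near 0.

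Most inflammatory and all listed oxidative stress genes rose in null BMM. In null OB 1 gene of each list rose. Of 18 inflammatory genes tested in BMM 15 rose and 3 fell, with a median of 3.313, and of 18 tested in OB 1 rose and 6 fell, with a median of -0.565. Over all tested genes 27.5% rose in BMM, and 12.6% rose and 15.5% fell in OB. With the length and GC offset 3 of them fell in OB, beside 1008 of all 13608 genes tested there. The interaction was tested for 16 of them in both cultures and was negative and past the threshold for 13. A gene low in wild-type BMM, such as Ptgs2 below, could pass the expression filter there through the null libraries alone. The count of 15 of 18 is therefore not directly comparable with the 27.5%. Fpr1, the receptor of neutrophils and macrophages for bacterial formyl peptides, was at 0.892, 1.14 and 2.61 CPM in wild-type and 512, 558 and 576 CPM in null BMM. OB libraries held 9.79, 15.9 and 18.02 CPM in the wild type and 7.92, 11.7 and 18.3 CPM in the null, which overlapped. It rose by 8.64 (SE 0.25) in BMM and was at -0.32 (SE 0.18) in OB, an interaction of -8.96 (SE 0.30) (adjusted p = 5.94e-17). The OB decrease passed only without 1 library (adjusted p = 0.0483 and log2 -0.47 without null OB replicate 2).

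Marco, a scavenger receptor, went from 13.9, 14.99 and 20.9 to 521, 578 and 640.1 CPM in BMM, with no overlap (adjusted p = 1.54e-13). Its OB value was -0.47 (SE 0.24), past the threshold only without 1 library (adjusted p = 0.0269 and log2 -0.68 without null OB replicate 2). Ptgs2, the inducible cyclooxygenase COX-2, differed in its base level: it was at 0.0566, 0.3605 and 0.673 CPM in wild-type and 8.84, 12.6 and 19.1 CPM in null BMM, against 239.9, 268 and 384 CPM in wild-type and 79.7, 325 and 762 CPM in null OB. It rose by 5.21 (SE 0.60) in BMM (adjusted p = 1.58e-07) and was at 0.34 (SE 0.33) in OB (adjusted p = 0.492), where the null libraries spread more widely than the wild-type ones. Tnf, the cytokine TNF, rose in BMM by 1.82 (SE 0.16) and fell by 0.59 (SE 0.18) in OB (adjusted p = 0.0181). The OB call of Tnf ended with the offset, at -0.43 (adjusted p = 0.135), with limma-voom and in a fit of the OB libraries alone. The chemokine Cxcl2 also rose in BMM and fell in OB, with log2 changes of 3.29 (SE 0.18) and -0.92 (SE 0.24). The 3 genes that fell in BMM were the monocyte chemokines Ccl2, Ccl3 and Ccl4. Ccl4 went from 93.2, 105 and 112 to 54.2, 60.5 and 63.95 CPM in BMM and from 7.71, 8.94 and 11.4 to 3.35, 4.96 and 6.83 CPM in OB, with no overlap in either, and fell, with log2 fold changes of -0.82 (SE 0.12) and -0.89 (SE 0.14).

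All 7 genes of the NRF2 list, targets of the transcription factor that answers oxidative stress, rose in BMM, with a median of 1.2, and in OB 1 rose (Slc7a11) and 1 fell (Nqo1), with a median of -0.168, beside 12.6% of all tested genes higher and 15.5% lower in OB. Neither OB call passed with the length and GC offset, at 0.18 for Slc7a11 (adjusted p = 0.527) and -0.40 for Nqo1 (adjusted p = 0.05304). The interaction was negative and past the threshold for all 7. Slc7a11, the cystine importer, was at 4.26, 5.93 and 8.67 CPM in wild-type and 144, 166 and 242 CPM in null BMM, a rise of 4.79 (SE 0.18) (adjusted p = 1.80e-17). In OB it was at 4.75, 5.64 and 7.805 CPM in the wild type and 6.34, 8.38 and 11.3 CPM in the null, a rise of 0.50 (SE 0.17), and the call was lost on leaving out single libraries (adjusted p from 0.0504 to 0.0802 without any 1 of 5 libraries, wild-type OB replicates 2, 4 and 6 and null OB replicates 2 and 5). Nqo1, a quinone reductase, rose from 4.81, 6.12 and 8.12 to 59.3, 66.8 and 74.02 CPM in BMM, by 3.41 (SE 0.15), and went from 13.2, 16.97 and 18.2 to 7.39, 11.5 and 16.3 CPM in OB, a log2 change of -0.58 (SE 0.14) (adjusted p = 0.00416). The groups were apart in BMM and overlapped in OB. Gclm and Txnrd1, of glutathione synthesis and thioredoxin reduction, rose in BMM by 2.28 (SE 0.32) and 1.17 (SE 0.12) and had OB intervals of -1.03 to 0.25 and -0.20 to 0.32.

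The largest increases limited to BMM, besides Smoc2, were in Slc13a3 and Slpi. Slc13a3, a sodium-coupled dicarboxylate transporter, was at 1.24, 1.61 and 2.296 CPM in wild-type and 129, 141 and 179 CPM in null BMM. In OB the wild type was at 8.35, 11.6 and 16.1 CPM and the null at 9.07, 10.7 and 12.4 CPM. The rise in BMM was 6.47 (SE 0.16) (adjusted p = 8.07e-21) and the OB interval was -0.43 to 0.11. Slpi, a secreted inhibitor of leukocyte proteases, was at 0.954, 1.16 and 3.06 CPM in wild-type and 97.7, 118 and 144 CPM in null BMM, and at 611 to 805 CPM in wild-type and 603 to 958 CPM in null OB. Its BMM rise was 6.36 (SE 0.22) and its OB interval -0.24 to 0.41. Acp5, the tartrate-resistant phosphatase of osteoclasts, was in the same class: it rose from 6.45, 8.24 and 9.64 to 34.4, 38.5 and 43.3 CPM in BMM, by 2.21 (SE 0.11), and was at 0.10 (SE 0.10) in OB from a far higher level, 1167 to 1589 CPM in the wild type.

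Decreases limited to BMM were led by Sorbs3, Adcy3 and Rnf144b. Sorbs3, which encodes the adhesion adaptor vinexin, was at 42.1, 51.1 and 53.6 CPM in wild-type and 3.72, 4.26 and 5.96 CPM in null BMM. It was at 36.4, 44.7 and 50.2 CPM in wild-type and 35.6, 39.9 and 45.2 CPM in null OB, so the wild-type levels of the cultures overlapped and the null levels did not. The BMM change was -3.45 (SE 0.11) (adjusted p = 4.30e-19), the OB interval -0.34 to 0.04. Adcy3, an adenylate cyclase, fell in BMM from 76.1, 84.6 and 89.5 to 5.39, 8.49 and 11.9 CPM, a log2 change of -3.31 (SE 0.12), while OB was at 78.6 to 93.2 CPM in the wild type and 91.2 to 113 CPM in the null. The OB rise, 0.25 (SE 0.10) with adjusted p = 0.0709, passed on leaving out single libraries (adjusted p from 0.0278 to 0.0453 without any 1 of 3 libraries, null BMM replicates 2 and 6 and null OB replicate 5). Adcy3 overlaps Cenpo on the other strand. Rnf144b, a ubiquitin ligase, fell from 64.8 to 81.05 CPM to 4.76 to 11.9 CPM in BMM, a log2 change of -3.22 (SE 0.15), with an OB interval of -0.45 to 0.14. Tgfbr2, the type II TGF-β receptor, was also in this class, going from 349, 361 and 413 to 127, 136 and 179.7 CPM in BMM (log2 fold change -1.39 (SE 0.07)) and from 217 to 267 CPM to 211 to 240.5 CPM in OB (-0.04 (SE 0.07)).

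The genes limited to OB were Hpse, Rps4l, Rpe and Bst2, of which 2, Hpse and Rpe, remained so with the length and GC offset. With it Rps4l also fell in BMM, with a log2 fold change of -0.38 (adjusted p = 0.0289), and Bst2 was at -0.80 in OB, short of the log2 of 1 that the class asks for. Hpse, the heparanase that cuts heparan sulphate in matrix, was at 39.3, 48.5 and 52.4 CPM in wild-type and 10.7, 14.7 and 16.6 CPM in null OB, and at 94.1, 110.1 and 125 CPM in wild-type and 66.2, 101 and 119 CPM in null BMM. OB groups were apart and BMM groups overlapped. It fell by 1.69 (SE 0.13) in OB (adjusted p = 7.59e-10), its BMM interval was -0.41 to 0.08 and the interaction was -1.53 (SE 0.17) (adjusted p = 5.85e-08). Rpe, ribulose-phosphate epimerase of the pentose phosphate pathway, went from 40.98, 48.7 and 53.5 to 16.3, 19.2 and 23.1 CPM in OB without overlap and from 51.4, 58.4 and 68.3 to 49.1, 50.3 and 60.4 CPM in BMM with overlap. Its OB change was -1.31 (SE 0.09) (adjusted p = 9.55e-11), its BMM interval -0.33 to 0.02. Rpe overlaps Kansl1l on the other strand. Rps4l, a ribosomal protein S4 relative annotated as a transcribed processed pseudogene, fell by 1.41 (SE 0.13) in OB (adjusted p = 3.42e-08), from 19.8 to 27.5 CPM to 6.67 to 12.5 CPM. It was at 2.49 to 3.08 CPM and 1.87 to 2.94 CPM in BMM, and 26.0% of its 31-base stretches are in Rps4l-ps, Rps4x or other genes.

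Genes higher in null OB and lower in null BMM were led by Nes, Lifr and Zfp618. Lifr, the receptor of leukaemia inhibitory factor, was at 25.3, 28.2 and 32.2 CPM in wild-type and 6.75, 11.7 and 16.9 CPM in null BMM. It was at 112, 155 and 169 CPM in wild-type and 218, 319 and 446 CPM in null OB. The groups were apart in both cultures, with changes of -1.31 (SE 0.20) in BMM (adjusted p = 8.00e-06) and 1.09 (SE 0.19) in OB (adjusted p = 1.78e-04), and with the length and GC offset -1.18 and 0.68. Nes, the intermediate filament nestin, went from 12.7, 18.3 and 31.7 to 2.15, 2.45 and 3.24 CPM in BMM and from 7.51, 9.21 and 13.2 to 15.4, 20.1 and 23.2 CPM in OB, again without overlap. The changes were -3.03 (SE 0.22) and 0.98 (SE 0.19). Zfp618, a zinc finger gene, fell by 1.37 (SE 0.23) in BMM, where the groups overlapped, and rose by 0.99 (SE 0.22) in OB, where they did not. All 3 stayed past the threshold in both cultures with the offset.

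The reverse class, lower in null OB and higher in null BMM, was led by Penk, Sema3c and Ccl5. Sema3c, a secreted semaphorin, was at 0.704, 0.849 and 1.92 CPM in wild-type and 6.96, 9.32 and 16.7 CPM in null BMM, and at 26.1, 31.04 and 37.7 CPM in wild-type and 14.6, 15.04 and 16.8 CPM in null OB. The genotypes did not overlap in either culture. The changes were 3.23 (SE 0.23) (adjusted p = 5.85e-12) and -1.03 (SE 0.18) (adjusted p = 1.30e-04). Ccl5, a T cell and monocyte chemokine, rose by 1.98 (SE 0.28) in BMM and fell by 0.98 (SE 0.27) in OB. The OB value was -0.57 with adjusted p = 0.183 under the offset, so that its opposite call ended. Penk, the enkephalin precursor, fell in OB from 68.01, 114 and 160.1 to 5.85, 34.8 and 51.7 CPM, a log2 change of -1.84 (SE 0.36). Its BMM levels were low, from 1 to 13 counts a library in the wild type and 13 to 36 in the null, and that call (log2 1.85 (SE 0.78)) was lost on leaving out single libraries (adjusted p from 0.0518 to 0.0946 without any 1 of 11 libraries, wild-type BMM replicates 2, 3, 4, 5 and 6, null BMM replicates 1, 2, 3, 4 and 5 and null OB replicate 6).

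Most MHC class I genes fell in null OB. Of 10 genes for the presentation of peptides to CD8 T cells, 0 rose and 7 fell in null OB, with a median of -0.51, while 3 rose and 1 fell in null BMM, with a median of 0.0, beside 15.5% of all tested genes lower in OB, 27.5% higher in BMM and 28.2% lower in BMM. The interaction was negative and past the threshold for 7. H2-K1, a classical class I heavy chain, was at 431, 509 and 593 CPM in wild-type and 589, 807 and 941 CPM in null BMM, which overlapped slightly. The OB level was 286, 308 and 362 CPM in the wild type and 181, 196 and 348 CPM in the null, where null OB replicate 5 sat inside the wild-type range. It rose by 0.63 (SE 0.14) in BMM (adjusted p = 3.93e-04) and fell by 0.54 (SE 0.14) in OB (adjusted p = 0.00545). Psmb8, an immunoproteasome subunit, rose by 0.37 (SE 0.11) and fell by 0.74 (SE 0.11). B2m, the class I light chain, fell by 0.75 (SE 0.16) in OB (adjusted p = 9.93e-04) and was at 0.02 (SE 0.16) in BMM. Without null OB replicate 5, 8 of the 10 fell in OB, with a list median of -0.597 and log2 fold changes of -0.71 (SE 0.10) for H2-K1, -0.89 (SE 0.08) for Psmb8 and -0.95 (SE 0.12) for B2m. With the length and GC offset and all 24 libraries, 5 of the 10 fell in OB, B2m stood at -0.40 (adjusted p = 0.0655) and H2-K1 at -0.38 (adjusted p = 0.0742). Over all 13608 genes tested in OB, 1008 were lower in that fit. H2-K1 and H2-D1 share 24.2% and 26.6% of their 31-base stretches with other genes, H2-Q7 among them.

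Of 11 osteoclast genes tested in both cultures, 5 moved in opposite directions and 2 in the same direction, with RANK-L listed for neither culture. Of these 11 in BMM 7 fell and 3 rose, with a median of -0.618, and of 15 tested in OB 7 rose and 0 fell, with a median of 0.323, beside 28.2% of all tested genes lower in BMM and 12.6% higher in OB. With the offset 5 rose in OB, beside 704 of all 13608 genes tested there. The opposite class held 5 of the list, Ctsk, Atp6v0d2, Nfatc1, Tnfrsf11a and Itgb3. Itgb3, the integrin β3 chain with which osteoclasts hold to bone, was at 10.4, 13.4 and 18.96 CPM in wild-type and 4.71, 5.68 and 7.203 CPM in null BMM, and at 47.8, 59.6 and 68.3 CPM in wild-type and 80.4, 99.1 and 126 CPM in null OB. The groups were apart in both cultures. It fell by 1.31 (SE 0.15) in BMM and rose by 0.76 (SE 0.14) in OB (adjusted p = 8.29e-08 and 2.08e-04). Nfatc1, the master transcription factor of osteoclast formation, went from 90.5, 101 and 117 to 44.8, 56.4 and 75.2 CPM in BMM and from 133, 169.9 and 203 to 165, 296 and 391 CPM in OB. It fell by 0.80 (SE 0.17) and rose by 0.75 (SE 0.17) (adjusted p = 3.75e-04 and 0.00206). Itgb3 and Nfatc1 were chosen for their values after these were seen. Tnfrsf11a, the receptor RANK, fell by 0.70 (SE 0.11) in BMM and rose by 0.42 (SE 0.11) in OB.

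Ctsk, the collagen-cutting cathepsin K, was at 6.43, 7.28 and 9.74 CPM in wild-type and 2.64, 3.89 and 5.41 CPM in null BMM and at 1704, 1988 and 2084 CPM in wild-type and 1968, 2362 and 2851 CPM in null OB. It fell by 0.98 (SE 0.14) in BMM, and its rise of 0.32 (SE 0.11) in OB was lost on leaving out single libraries (adjusted p from 0.0595 to 0.0822 without any 1 of 4 libraries, wild-type OB replicates 1 and 6 and null OB replicates 4 and 5). Mmp9, a gelatinase of osteoclasts and neutrophils, rose in both: from 0.0939, 0.329 and 0.6798 to 156, 182 and 226 CPM in BMM, where the wild-type libraries held 2 to 12 counts, and from 742, 869 and 1036 to 1054, 1261 and 1990 CPM in OB. The changes were 9.13 (SE 0.24) and 0.69 (SE 0.14). Tcirg1, a subunit of the acid pump, fell by 0.62 (SE 0.08) in BMM and was at 0.14 (SE 0.08) in OB. The macrophage sum was lower in null OB than in wild-type OB without overlap, while the osteoclast sum, 5330 to 8177 against 4441 to 5623 CPM, was not lower.

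Nuclear genes of the respiratory chain were higher in null BMM, and their OB values changed with the offset. Of 15 genes 10 rose and 2 fell in BMM, with a median of 0.408, and 2 rose and 5 fell in OB, with a median of 0.009, beside 27.5% of all tested genes higher in BMM, 12.6% higher in OB and 15.5% lower in OB. The opposite class held 6. Cox5a, a cytochrome oxidase subunit with a short transcript of 690 bases, was at 137, 150.3 and 158 CPM in wild-type and 208, 233 and 278 CPM in null BMM, and at 131, 148 and 171 CPM in wild-type and 118, 119 and 133 CPM in null OB. It rose in BMM by 0.68 (SE 0.07) and fell by 0.30 (SE 0.07) in OB, but stood at 0.07 in OB (adjusted p = 0.469) with the offset, which also gave 7 genes of the list higher and 0 lower in OB. Over all 13608 genes tested in OB the offset gave 704 higher and 1008 lower. Sdha, the flavoprotein of complex II, rose by 0.18 (SE 0.06) and 0.20 (SE 0.06) and kept both calls with the offset. Of 20 ribosomal protein genes, which also have short transcripts, 14 fell in OB without the offset and 0 with it. In BMM 4 fell without it and 12 with it. Without the offset 28.2% of all tested genes were lower in BMM and 15.5% in OB. With it 3264 of 11935 were lower in BMM and 1008 of 13608 in OB. The interaction passed for 5 without it, all negative, and for 9 with it, all positive.

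The genotype effect varied with transcript length in opposite ways in the cultures, and the opposite class was divided by length. Across the 11643 genes Spearman's rho between length and the log2 fold change was 0.62 in OB and -0.201 in BMM. This is a description across genes, which share libraries and base composition. Genes were put in 5 bins of equal size by length. In the shortest bin the median log2 fold change was 0.191 in BMM and -0.272 in OB, and in the longest bin -0.116 and 0.26. Median transcript length was 5130 bases for genes higher in null OB and lower in null BMM and 1198 bases for the reverse class. It was 5116 bases for shared higher genes, 2028 for shared lower genes and 2728 for all. A fit with an offset for length and GC content in each library, which takes out this trend by construction, left rho at 0.008 and 0.005. Opposite genes then numbered 437, of which 303 were also opposite without it, 135 higher and 168 lower in null OB. Shared genes numbered 596, with 414 in both fits, 89 higher and 325 lower. Genes called in both cultures then had the same sign in 57.7% of cases, against 38.9% without the offset. Spearman's rho between the BMM and OB fold changes across genes was -0.105 without and 0.03 with the offset. OB calls fell from 3820 to 1712. RNA quality and library preparation can vary with transcript length, their part was not tested, and a genotype effect that follows length cannot be told apart from them.

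**Figure D4:**
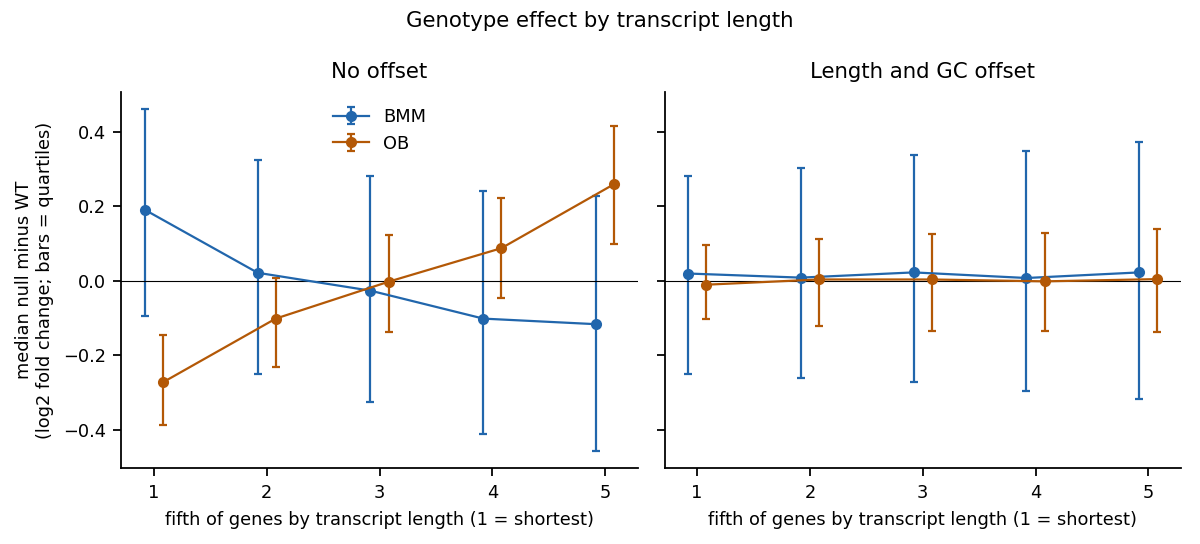
Median null minus wild-type log2 fold change of genes in 5 equal bins of transcript length (1 is shortest), with bars from the lower to the upper quartile, in BMM and OB, without (left) and with (right) an offset for length and GC content. Without it the medians run from 0.191 to -0.116 in BMM and from -0.272 to 0.26 in OB. With it all lie within 0.03 of 0, because the offset takes out each library's trend with length.

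Genes near Mir324 were in either class at shares near those of all genes. Within 10 Mb on chromosome 11, 238 genes were tested in both cultures, of which 22 were shared (9.24%) and 26 opposite (10.9%), beside 7.24% and 11.4% of all genes. The share called was 53.4% in BMM and 31.1% in OB, beside 55.8% and 29.5%.

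Seed sites of miR-324 were counted in the longest annotated 3′ untranslated region of each gene. The 5p site GGGATGC was in 9.3% of genes tested in both cultures, in 18.4% of shared higher genes and 6.7% of shared lower genes. It was in 16.7% of genes higher in null OB and lower in null BMM and in 5.1% of the reverse class. The median lengths of the untranslated regions of these groups, in the same order, were 1285, 2279, 954, 2391 and 467 bases. The 3p site GGCAGTG was in 17.4%, 24.3%, 13.4%, 26.6% and 9.2% of the same groups. The part of the length of the untranslated region in these shares was not tested. In genes limited to BMM the 5p site was in 10.7% of those higher and 10.7% of those lower, and the 3p site in 15.1% and 22.9%. Sites of Runx2, Zfp618, Phospho1 and Lifr are shown as examples, on the gene's strand with the match in capitals, from GENCODE M21 coordinates. Other named genes held sites too.
Runx2, miR-324-5p, chr17:44605372-44605398, minus strand: gggaatagagGGGATGCattagtgcct
Zfp618, miR-324-5p, chr4:63135584-63135610, plus strand: ctgtggtatgGGGATGCttagatttca
Zfp618, miR-324-5p, chr4:63136488-63136514, plus strand: actcatcgctGGGATGCctcgtcctca
Zfp618, miR-324-5p, chr4:63137248-63137274, plus strand: tacagcaagaGGGATGCtgtcagtatc
Phospho1, miR-324-3p, chr11:95831543-95831569, plus strand: ttggaaggcaGGCAGTGcccctcgaac
Lifr, miR-324-3p, chr15:7193537-7193563, plus strand: tgcctccctgGGCAGTGttgttacctc
Runx2 and Phospho1 were shared higher, and Lifr and Zfp618 rose in OB and fell in BMM. Sites not shown include some in genes that fell. Oasl2 (miR-324-3p site) and Igf1 (miR-324-5p site) fell in both cultures. Ccl5 (miR-324-5p site) fell in OB and rose in BMM, and Rpe (miR-324-3p site) fell in OB. A match is a stretch of letters and says nothing of binding in these cells.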

How the data were processed

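Per the file headers, the deposited tables list an estimated count and TPM per transcript. The authors' estimated counts come from pseudoalignment, and the deposited TPM values were not used. The submitters' processing notes name kallisto and DESeq2 without versions and the build GRCh38, although the identifiers are mouse. The index and the strand setting are not given in the sources used here. Of 88198 transcripts 97.6% matched GENCODE M21 (GRCm38), and 88.8% had the same length there. Estimated counts were summed per gene and rounded, leaving out the 0.61% to 0.92% of each library that matched no gene. Library totals were 17048357 to 23598922. edgeR 4.0.16 in R 4.3.3 (TMM, filterByExpr, robust quasi-likelihood) was fitted to 24 libraries with 4 group means. The interaction was adjusted over 14014 genes, each culture over genes passing the filter there. CPM use TMM library sizes, and SE is the absolute log2 fold change over the root of F. The steps were tested on simulated counts that held no trend of the genotype effect with transcript length. At log2 1 they recovered 48.0% of genes simulated as limited to OB and 60.0% of those limited to BMM. At log2 1.5 these were 96.0% and 84.0%. At log2 0.5 they recovered 68.0% of opposite and 80.0% of shared genes. Chi-square statistics per gene between replicates were 6.7 or more, so each library was counted once.

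Members and lists were chosen with earlier results of these data known. Named genes are the 3 of each class with the largest change (the smaller of both where shared or opposite) and at least 10 CPM in a group, list members of highest mean level or with a differing call, the locus and Runx2. Alternatives were DESeq2 1.42.0, limma-voom 3.58.1, other filters, a length and GC offset by lowess, replicate blocks, other thresholds and leaving out each library. The level minimum of 10 CPM in each culture, the offset for lists and position, and lists without null OB replicate 5 were chosen after seeing the data. Some named results are not reported here.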

Additional observations from a re-analysis of the deposited data

Results flagged for a closer look

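Among 344 groups of 6 libraries, from 87 named genes, 18 held a library that stood far from the other 5. Chance alone gives about 1 in 20 groups. Null OB replicate 5 accounted for 6 of them, with the highest null OB level of interferon-stimulated and MHC class I genes: Irf7 at 74.19 CPM, Ifit2 at 43.79 CPM, H2-D1 at 2103 CPM, B2m at 1206 CPM, H2-K1 at 348 CPM and Tapbp at 311.5 CPM. Nes was at 3.236 CPM in null BMM replicate 3, Slpi was at 3.059 CPM in wild-type BMM replicate 4 and Hpse was at 10.71 CPM in null OB replicate 6. Rps4l was at 19.82 CPM in wild-type OB replicate 3, Cd74 was at 37.98 CPM in null BMM replicate 1 and H2-Ab1 was at 114.9 CPM in wild-type OB replicate 4. Marco was at 20.85 CPM in wild-type BMM replicate 4, Col1a2 was at 14779 CPM in null OB replicate 6 and Lox was at 4003 CPM in wild-type OB replicate 3. Ctsd was at 21414 CPM in wild-type BMM replicate 1, Tgfbr2 was at 179.7 CPM in null BMM replicate 6 and Tgfbr2 was at 267.4 CPM in wild-type OB replicate 1.

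The genotype effect differed between the cultures for 6555 genes by the interaction test of edgeR, and for 66 of the named genes. It was more positive in OB for 20 of these. The OB minus BMM difference (log2) was 4.01 for Nes, 3.55 for Adcy3, 3.30 for Sorbs3, 3.06 for Rnf144b, 2.81 for Phex, 2.40 for Lifr and 2.36 for Zfp618. It was 2.21 for Lpl, 2.07 for Itgb3, 1.62 for Mrc1, 1.56 for Nfatc1, 1.35 for Ifit2, 1.35 for Tgfbr2 and 1.30 for Ctsk. It was 1.21 for Spp1, 0.76 for Tcirg1, 0.72 for Il1rn, 0.56 for Igf2r, 0.49 for Dvl2 and 0.33 for Igf1. It was more negative in OB for 46. The difference was -8.96 for Fpr1, -8.44 for Mmp9, -6.83 for Lox, -6.63 for Slc13a3, -6.35 for Smoc2, -6.27 for Slpi and -5.67 for Marco. Further values were -4.87 for Ptgs2, -4.29 for Slc7a11, -4.26 for Sema3c, -3.99 for Nqo1, -3.70 for Penk, -3.46 for Acta2 and -2.96 for Ccl5. Next came -2.75 for Col1a2, -2.67 for Gclm, -2.50 for Adgre1, -2.41 for Tnf, -2.34 for Col3a1, -2.11 for Acp5 and -2.02 for Phospho1. Other genes had -1.62 for Fn1, -1.53 for Hpse, -1.40 for Tagln, -1.38 for H2-Ab1, -1.35 for Rrm2, -1.24 for Rps4l and -1.21 for Col1a1. The interaction stood at -1.20 for Bst2, -1.17 for H2-K1, -1.16 for Rpe, -1.15 for Itgb7, -1.10 for Ctsl, -1.10 for Txnrd1 and -1.09 for Lyz2. Smaller differences were -1.06 for Hmox1, -0.997 for Dlg4, -0.98 for H2-D1, -0.97 for Cox5a, -0.79 for Gpnmb, -0.77 for B2m and -0.63 for Ctsd. The remaining values were -0.55 for Cox4i1, -0.51 for Gabarap, -0.34 for Acadvl and -0.32 for Tapbp. The fitted value of Smoc2 rests on 0 or 1 count in each wild-type BMM library and depends on the prior count. With the length and GC offset the interaction no longer passed for B2m, Cox4i1, Gabarap, Igf1 and Igf2r. That of Igf1 was also lost without any 1 of 10 libraries (adjusted p from 0.0518 to 0.0769).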

How the results depend on the processing

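Counts that moved by over 1.5 times are these. With the length and GC offset OB calls fell from 3820 to 1712, and to 1609 with the replicate block added, and opposite genes from 1326 to 437 and 405. Genes limited to OB numbered 2 with offset and block, 0 with an interval inside -0.25 to 0.25, and 3 to 8 as single libraries were left out, 8 without null OB replicate 5. Genes limited to BMM numbered 42 with that interval and 215 with 10 CPM in each culture, and at a log2 of 1 in both cultures 38 were shared and 15 opposite. The offset moved OB list counts: interferon lower 10, inflammatory lower 3, osteoblast higher 3, matrix higher 3, respiratory chain lower 0 and ribosome lower 0. Over all 13608 genes tested in OB it moved those higher from 1709 to 704 and those lower from 2111 to 1008. Near Mir324 the offset left 13 shared and 9 opposite of 238 genes, beside 596 and 437 of all 11643 genes tested in both cultures. Signs that turned with the offset, without and with block, were the Ccl4 interaction (0.53 and 0.52), Cox4i1 in BMM (-0.033 and -0.034) and its interaction (0.028 and 0.029), Cox5a in OB (0.067 and 0.066) and the Igf2r interaction (-0.0099 and -0.0068). The cause was not tested. The replicate block alone gave 6365 interaction, 6536 BMM and 3658 OB calls. Same-numbered libraries correlated between -0.39 and 0.30, and at most 1 of 6 correlated best with its own number. This check showed no pairing by number. It cannot exclude pairing, because libraries from a shared mouse need not correlate in this way. Left-out libraries gave 6252 to 6703 interaction calls, 1118 to 1484 opposite and 713 to 880 shared genes. Of 200 called single results 164 held in every setting run. The offset ended 24, limma-voom 7, DESeq2 1 and the block 1. Depth limits genes near the count floor, such as Smoc2 and Penk in BMM.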

Other observations

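Chondrocyte genes, which were too low to test in BMM, rose in null OB. Of 6 listed genes 5 rose and 0 fell, beside 12.6% of all tested genes higher in OB, with a median log2 fold change of 0.877, and 4 rose with the length and GC offset. With that offset 704 of all 13608 genes tested in OB were higher. Col2a1, the collagen of cartilage, went from a mean of 196 to 1019 CPM, a change of 2.36 (SE 0.25) (adjusted p = 6.25e-07). Acan (aggrecan) rose by 1.30 (SE 0.15) and Sox9, the transcription factor of cartilage, by 0.80 (SE 0.16). Of 6 adipocyte genes tested, 2 rose and 3 fell in BMM and 2 rose and 2 fell in OB, beside 27.5% and 28.2% of all tested genes in BMM and 12.6% and 15.5% in OB. Lpl, lipoprotein lipase, was at 445, 592 and 979 CPM (lowest, median and highest) in wild-type and 185, 240.4 and 302 CPM in null BMM, and at 34.6, 38.95 and 50.98 CPM in wild-type and 44.8, 67.05 and 109 CPM in null OB. It fell by 1.46 (SE 0.20) in BMM and rose by 0.75 (SE 0.20) in OB, and Fasn, fatty acid synthase, went the same ways, with log2 changes of -0.66 (SE 0.16) and 0.66 (SE 0.16). Pparg, the regulator of fat cell formation, fell in both, with -2.40 (SE 0.17) and -0.83 (SE 0.17). Adipoq, Plin1, Lep and Cidec, defining genes of fat cells, were at or near 0.

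Of 4 genes of the IGF axis tested in BMM 1 rose and 2 fell, and of 10 tested in OB 2 rose and 3 fell, beside 27.5% and 28.2% of all tested genes in BMM and 12.6% and 15.5% in OB. Igf1, a growth factor that macrophages and osteoblasts make, fell from 1132, 1216 and 1276 to 724, 743 and 811 CPM in BMM and from 419, 549 and 631 to 356, 394 and 519 CPM in OB, with log2 changes of -0.68 (SE 0.09) and -0.35 (SE 0.09). Igfbp4, which binds IGFs, fell, with log2 fold changes of -0.49 (SE 0.11) and -0.66 (SE 0.11). Id2, a target of BMP signals, fell, with log2 fold changes of -0.83 (SE 0.16) in BMM and -0.59 (SE 0.16) in OB, and the OB value was -0.33 (adjusted p = 0.162) with the offset. Of 14 proliferation genes 7 rose and 0 fell in BMM, and 1 rose and 2 fell in OB, beside 27.5% of all tested genes higher in BMM, 12.6% higher in OB and 15.5% lower in OB. Rrm2, of nucleotide synthesis, rose by 1.03 (SE 0.13) in BMM and stood at -0.32 (SE 0.13) in OB (adjusted p = 0.0761). MHC class II genes rose in BMM in 3 of 6 cases, and in OB 0 of 7 rose and 1, H2-DMb1, fell (all tested genes: 27.5% higher in BMM, 12.6% higher and 15.5% lower in OB). Cd74, the class II invariant chain, rose by 1.06 (SE 0.25) in BMM and was at 0.63 (SE 0.24) in OB (adjusted p = 0.0555), past the threshold on leaving out single libraries (adjusted p from 0.0201 to 0.0462 without any 1 of 6 libraries, wild-type BMM replicates 3 and 4, wild-type OB replicates 2 and 6 and null OB replicates 5 and 6). Ighm, the only lymphocyte gene tested, was at a mean of 180.1 CPM in wild-type and 52.1 CPM in null BMM, a log2 fold change of -1.79 (SE 0.18).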
